A study of Mus musculus with 15 samples.

Results

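The 10 genes Acta2, Tagln, Vim, Des, Pdgfra, Pdgfrb, Fn1, Postn, S100a4 and Thy1, which are used to mark myofibroblasts and other mesenchymal cells, were followed through the kidneys of mice with adenine-induced chronic kidney disease (CKD). They were chosen by name, with earlier results of these data known. Their values are the rows of the expression table whose Ensembl identifiers carry these symbols in GENCODE M21 (GRCm38, mm10). All 10 were found among the 54532 genes of the table, and all 10 were tested in every comparison.

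RNA of whole kidneys from 15 male C57BL/6 mice was sequenced, 5 in each of 3 groups. The control group (C) ate normal chow and received a DMSO vehicle by gavage. The CKD model group (M) ate chow with 0.25% adenine for the first 4 weeks and received the same vehicle, and the AA group ate the adenine chow and received daily gavage of 30 mg/kg asiatic acid, a triterpene of Centella asiatica, for all 8 weeks. Mice of all groups were 8 weeks old at the start and ate standard chow in the last 4 weeks, so that the M and AA kidneys were taken after adenine had been withdrawn. Adenine feeding leads to crystals in the tubules, and the model is one of tubular and interstitial injury.

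Myofibroblasts are contractile, matrix-secreting cells that appear in scarring kidneys. They are thought to arise largely from resident fibroblasts and pericytes, which carry the receptors for platelet-derived growth factor (PDGF). None of the 10 genes is private to them. In a healthy kidney Acta2, Tagln and Des belong mainly to the smooth muscle of vessels and to pericytes, Vim to endothelium, podocytes and leukocytes as well as to fibroblasts, and S100a4 and Thy1 also to leukocytes. Because whole tissue was sequenced, fewer cells of a type and less RNA per cell cannot be told apart.

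The values are FPKM, in which the fragments counted on a gene are divided by the length of its exons and by a total of the library, so levels of different genes can be set side by side. The reads counted, as recovered from the steps between low FPKM values, numbered 13647020 to 28884427 per library and 2077628 to 13576597 outside the mitochondrial genes, which took 53.0 to 62.5% of the reads in C, 64.0 to 86.8% in M and 69.2 to 87.2% in AA. The libraries of M mice 1 to 3 stood apart, with 10068 to 12222 genes above 0 against at least 18695 in the other 12. In M mice 2 and 3 there was also Xist, the RNA of the inactive X chromosome of females, at 2.55 and 1.45 FPKM, whereas it was at most 0.119 in the other 13 libraries. The Y-linked gene Ddx3y was present in all 15, at 1.63 to 8.04 FPKM, so these 2 libraries go against a label of RNA from male kidneys alone. Calls that rest on M are therefore also given without these mice.

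Each comparison was tested with limma on log2(FPKM + 1). A gene was called when its p, adjusted over all genes tested, was 0.05 or less and its level differed by 1 or more on the log2 scale. The comparisons share groups, so they are not independent of each other. In M vs. C, 1 of the 10 genes was called, Vim, which was higher in M. The rule called 1.38% of all 21153 genes tested there, 0.269% as higher and 1.11% as lower. In AA vs. M, 1 of the 10 was called, again Vim, which was lower in AA. Of all 19798 genes tested there the rule called 12.8%, of which higher genes made 11.7% of all genes and lower genes 1.07%. Against C, 5 of the 10 were called in AA, and all of them, Pdgfra, Pdgfrb, Fn1, S100a4 and Thy1, were higher in AA. There the rule called 19.8% of all 21898 genes, 10.2% as higher and 9.61% as lower. Once M mice 2 and 3 were left out, limma called 0 of all 22686 genes tested in M vs. C, where 2032 had an unadjusted p under 0.05, and 432 of 21046 in AA vs. M, so that no call in M vs. C, of a member or of any gene named beside the members, held without them.

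The adjusted p alone passed for 1, 1 and 6 of the 10 genes in these comparisons, beside 1.47%, 17.8% and 35.9% of all genes tested. The median log2 fold change of the 10 genes was 0.60 in M vs. C, −0.10 in AA vs. M and 0.91 in AA vs. C, where the medians over all genes tested were −0.12, 0.17 and 0.09. In M vs. C, Vim was the 1 gene of the 10 with every value of one group above every value of the other, in AA vs. M Pdgfra was, and between AA and C there were 4, Pdgfra, Pdgfrb, Fn1 and S100a4. In each case the first group named was higher, as was so for 1.05%, 11.9% and 11.5% of all genes tested. The share with such a separation in either direction was 4.72%, 13.2% and 24.0%, and 1.31% of all genes had it with AA below M.

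**Figure D1:**
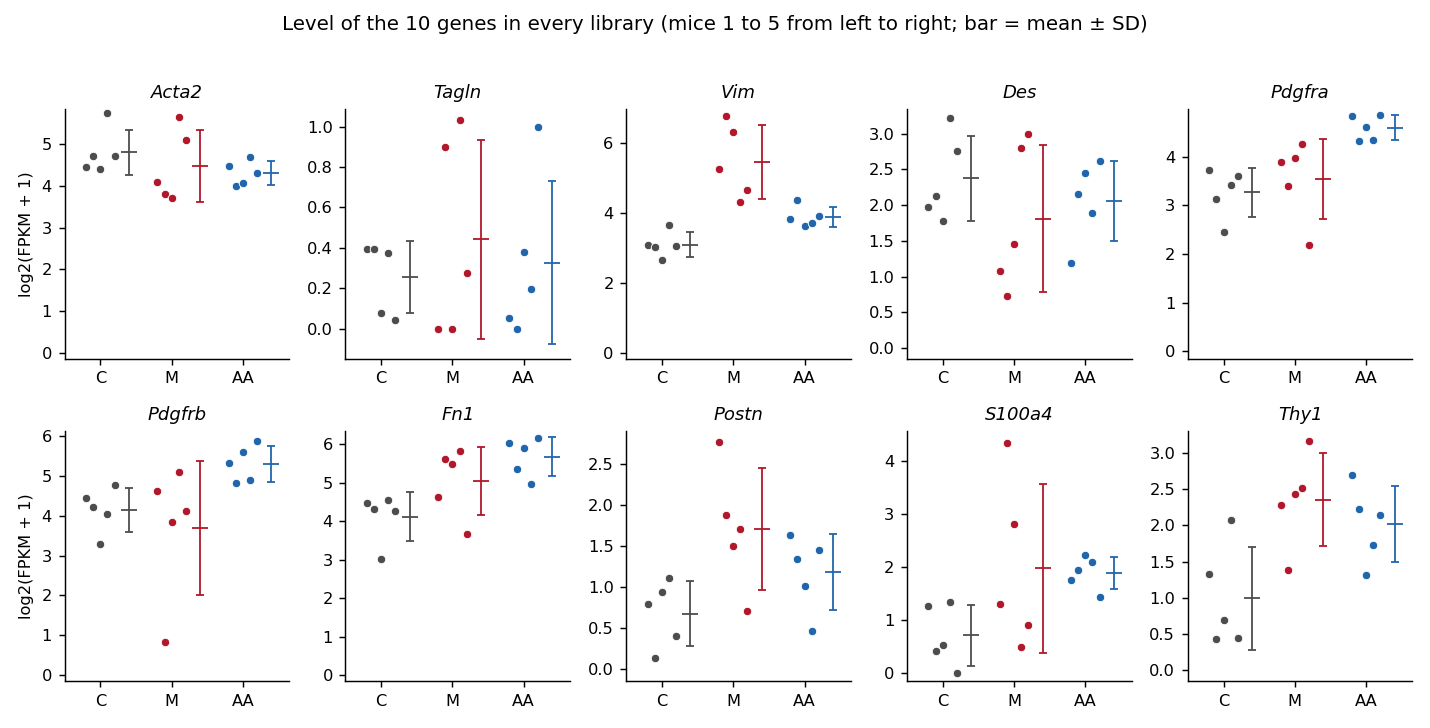
Level of each of the 10 genes as log2(FPKM + 1) in every library of the C, M and AA groups (5 mice each, mouse 1 to mouse 5 from left to right), with the mean ± SD beside the points. The 5 M values of Vim lie above the 5 C values, and the AA values of Pdgfra, Pdgfrb, Fn1 and S100a4 lie above those of C.

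Vim (ENSMUSG00000026728, chromosome 2, 13573927 to 13582826) encodes vimentin, the intermediate filament protein of mesenchymal cells. In C mice 1 to 5 its FPKM was 7.44, 7.10, 5.27, 11.6 and 7.41. The M values, in the same order of mice, were 36.8, 107, 77.5, 18.8 and 23.9, so every M value lay above every C value and M mice 1 to 3 stood highest. For AA they were 13.3, 19.7, 11.3, 12.2 and 13.9, with 4 of 5 above the highest C value and only AA mouse 2 above the lowest M value. The means were 7.76 ± 2.32 (SD, n = 5) in C, 52.8 ± 38.0 (SD, n = 5) in M and 14.1 ± 3.27 (SD, n = 5) in AA.

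The log2 fold change of Vim was 2.35 in M vs. C (standard error 0.45, limma adjusted p = 0.0287) and −1.56 in AA vs. M (standard error 0.45, limma adjusted p = 0.0297). In AA vs. C it was 0.80 (standard error 0.24, limma adjusted p = 0.0205), which passed the p threshold but not the fold threshold. Neither call held without M mice 2 and 3. Limma then called 0 of all 22686 genes tested in M vs. C, so the loss there was not particular to Vim. Leaving out M mice 2 and 3 gave 1.64 in M vs. C (limma adjusted p = 0.164) and −0.84 in AA vs. M (limma adjusted p = 0.158), and M mice 4 and 5 alone gave 1.38 (limma adjusted p = 0.131) and −0.58 (limma adjusted p = 0.266). With 1 library left out at a time, the M vs. C call was lost without C mouse 2 or 5 or M mouse 1, 2 or 3, and the AA vs. M call without M mouse 1, 2 or 3 or AA mouse 1, 3 or 4, with limma adjusted p between 0.0164 and 0.0913 and between 0.0127 and 0.0807.

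Leukocytes contain vimentin, and markers of macrophages were read beside it. The summed FPKM of 8 of them (Cd68, Adgre1, Csf1r, C1qa, C1qb, C1qc, Mrc1 and Cx3cr1) was 14.8 to 57.5 in C, 74.0 to 109.6 in M and 35.0 to 52.8 in AA, and no marker of the list was at 0 throughout a group. C1qa, C1qb and C1qc made up most of the M sums, at 10.7 to 20.7, 25.8 to 35.6 and 7.89 to 15.3 FPKM. In C they were at 1.03 to 15.8, 1.78 to 21.2 and 0.133 to 6.46 FPKM. The sum thus does not stand for all 8 alike. Among the 8, 7 had a log2 fold change above 0 in M vs. C and 2 were called higher, the complement genes C1qb and C1qc. In AA vs. M, 0 of the 8 had a log2 fold change above 0 and 1 was called lower, C1qb. Without M mice 2 and 3, limma called 0 of the 8 in either comparison. Csf1r, the receptor for colony stimulating factor of macrophages, ran from 6.92 to 15.9 FPKM in C and from 2.31 to 8.28 in M, against the direction of Vim, and was called lower in AA vs. C, where C1qa and C1qc were among 3 called higher. Ptprc, the CD45 antigen of all leukocytes, was low, with means of 0.530 ± 0.523 FPKM in C, 0.887 ± 0.605 in M and 1.28 ± 0.667 in AA (SD, n = 5 each), and was not called by limma in any comparison on the deposited FPKM, while the voom test on recovered reads outside the mitochondrial genes called it higher in AA vs. C (log2 fold change 1.75). The part of macrophages in the Vim result was not tested.

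The ratio of Vim to Ptprc within a library depends on how the library was scaled only through the 1 added to each FPKM. That 1 was a large part of the denominator, since Ptprc was at 0.173 to 2.15 FPKM. The log2 ratio was 2.37 to 2.70 in C, 3.15 to 5.63 in M and 2.18 to 3.06 in AA, so M overlapped with neither group. M exceeded C by 2.05, and AA lay below M with a difference of −1.84. Each had p = 0.00794 by a two-sided exact permutation test, the smallest p that 5 against 5 allows, and an adjusted p of 0.0286 over 18 tests (6 ratios in 3 comparisons). AA and C differed by 0.22 (exact permutation p = 0.246). When M mice 2 and 3 were left out, the differences from M became 1.36 and −1.14, and an exact test of 3 mice against 5 cannot go below p = 0.0357. With 0.1 in place of the added 1 they were 1.74 and −2.16, and neither passed (exact permutation test, adjusted p = 0.125 and 0.0714). Under TPM without mitochondrial genes they were 1.73 and −2.17, and again neither passed (exact permutation test, adjusted p = 0.125 and 0.0714).

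The genes whose log2 levels went most like Vim, out of 7207 genes above 0 in all 15 libraries, were Top2a (Pearson's r = 0.95 over the 15 libraries), a topoisomerase of dividing cells, the ribosomal protein gene Rpl10 (0.94), the mannose receptor gene Mrc1 of macrophages (0.93), the chemokine gene Ccl6 (0.93) and the sorting nexin gene Snx5 (0.93). Over the 13 libraries without M mice 2 and 3, r was 0.89, 0.89, 0.79, 0.87 and 0.82 in this order. The libraries share their scaling, and these values are descriptions without a test.

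Acta2 (ENSMUSG00000035783, chromosome 19, 34241090 to 34255590, minus strand) encodes α-smooth muscle actin (α-SMA), the protein by which myofibroblasts are usually recognised. Its transcription is known to depend on serum response factor, which binds CArG boxes. A pair of 26-base stretches before its RefSeq start (GRCm38.p6, minus strand) is shown because they hold matches to the CArG box, in capitals, that no other member promoter searched held. An exon model of GENCODE M21 covers them.

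Acta2, chr19:34255440-34255465: gctgaggtCCCTATATGGttgtgtta

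Acta2, chr19:34255390-34255415: tctttgctCCTTGTTTGGgaagcgag

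These matches begin 84 and 34 bases before the start, and each has 1 base in the A/T core of the box that is neither A nor T. The search, on both strands of the 250 bases before the start, allowed at most 1 such base. Promoters of 6 of the 10 genes were in the RefSeq table, 7 promoters in all, and that of Acta2 was the 1 with a match, against 8.59% of 32851 promoters. The members without an entry there were not searched. A match describes letters and does not show binding.

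Acta2 did not differ between the groups beyond its spread. The C libraries, mice 1 to 5, had 21.1, 25.4, 20.1, 52.6 and 25.2 FPKM. The M libraries had 16.2, 13, 12.0, 49.6 and 33.6 and the AA libraries 21.4, 14.9, 15.8, 25.0 and 19.0, in the same order of mice. M mice 1 to 3 lay below all C mice, while in the other groups only C mouse 4 exceeded M mice 4 and 5.

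The log2 fold change of Acta2 was −0.33 in M vs. C (95% interval −1.26 to 0.59, limma adjusted p = 0.710), −0.16 in AA vs. M (−1.03 to 0.70, limma adjusted p = 0.820) and −0.50 in AA vs. C (−1.10 to 0.11, limma adjusted p = 0.180). With M mice 4 and 5 alone the M vs. C value turned to 0.58 (limma adjusted p = 0.673), and leaving out M mice 2 and 3 turned it to 0.15 (limma adjusted p = 0.971). Acta2 in AA vs. C was below the median of all genes under all 7 scalings tried, and was called lower under 2 of them, TPM (log2 fold change −1.58), which brings every library to the same FPKM total, and the test on all recovered reads (−1.47). Both include the mitochondrial genes. With these genes left out it was not called under TPM (−0.61, limma adjusted p = 0.134) or in the voom test on reads (−0.36, limma adjusted p = 0.332).

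Des (ENSMUSG00000026208, chromosome 1, 75360329 to 75368579), the muscle intermediate filament desmin that also marks pericytes and mesangial cells, was spread in a like way within M. It stood at 2.93, 3.39, 2.44, 8.34 and 5.77 FPKM in C mice 1 to 5. Its M values were 1.10, 0.663, 1.75, 5.97 and 6.96, and its AA values 1.29, 3.46, 4.49, 2.70 and 5.11. M mice 1 to 3 were again below all C mice, and no comparison was called, with log2 fold changes of −0.56 in M vs. C, 0.25 in AA vs. M and −0.31 in AA vs. C (limma adjusted p = 0.574, 0.755 and 0.483). With only M mice 1 to 3 in the M group, Des was called lower in M vs. C (−1.29, limma adjusted p = 0.0354). Under TPM and in the test on all recovered reads it was called lower in AA vs. C (−1.27 and −1.35). With mitochondrial genes left out of these it was not called (−0.50 and −0.24, limma adjusted p = 0.349 and 0.672). Acta2 and Des correlated at r = 0.72 over the 15 libraries.

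Tagln (ENSMUSG00000032085, chromosome 9, 45929619 to 45936058), the smooth muscle protein transgelin or SM22α, was close to the limit of detection, with 0 to 61 reads per library. C mice 1 to 5 had 0.313, 0.313, 0.0530, 0.297 and 0.0301 FPKM. In M mice 2, 4 and 5 it was 0.866, 1.05 and 0.210, and it was at 0 in M mice 1 and 3, where a count of 3 reads would give 0.130 and 0.111. In AA it ran from 0 in mouse 2 to 1.00 in mouse 5. Of its exon bases, 67.9% lie in exons of other genes, 62.4% in the antisense gene Gm48529, and the counting is not stated to have used strand, so its level is uncertain. It was not called in any comparison (limma adjusted p = 0.675, 0.792 and 0.773).

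Myh11, the smooth muscle myosin heavy chain, was the contractile gene against which Acta2 was read. In C it ran from 5.76 to 13.1 FPKM and in AA from 0.339 to 1.47. M mice 4 and 5 had 9.62 and 7.65, M mouse 1 had 0.363, and M mice 2 and 3 had 0, where 3 reads would give 0.0378 and 0.0291. It was called lower in AA vs. C (log2 fold change −2.40, standard error 0.27, limma adjusted p = 0.00022) under all 7 scalings.

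The log2 ratio of Acta2 to Myh11 was 0.99 to 1.92 in C, 2.00 to 3.81 in M and 2.69 to 4.28 in AA. Both M and AA lay above C without overlap, by 1.61 and 1.90 (each exact permutation p = 0.00794, adjusted p = 0.0286), and AA exceeded M by 0.29, within their spread (exact permutation p = 0.548). The M vs. C difference was 1.16 when M mice 2 and 3 were left out and 0.65 with M mice 4 and 5 alone, and with 0.1 in place of the added 1 it was 3.15 (exact permutation test, adjusted p = 0.0476). The ratio of Tagln to Myh11, in which Tagln had few reads, was higher in AA than in C by 2.47 (exact permutation p = 0.00794, adjusted p = 0.0286) and in M than in C by 2.13 (exact permutation p = 0.0317, adjusted p = 0.0714). With 0.1 in place of the added 1 these differences were 3.27 and 3.77, and neither passed (exact permutation test, adjusted p = 0.0571 each). The M vs. C difference of Tagln/Myh11 was 1.19 without M mice 2 and 3 and 0.47 with M mice 4 and 5 alone. On the log2 scale Tagln itself differed by 0.07 in AA vs. C and 0.19 in M vs. C, and Acta2 by −0.50 and −0.33. Myh11 differed by −2.40 and −1.94 there, the latter not called (limma adjusted p = 0.178). Both ratios thus mainly restated the lower Myh11 and gave no separate result on Tagln or Acta2.

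Among 12 other genes of the contractile apparatus, Myh11 included, limma on the deposited FPKM called none of the 11 with enough signal for a test in M vs. C or AA vs. M, where 2 each had an unadjusted p under 0.05, and 2 were called lower in AA vs. C, Myh11 and the smoothelin gene Smtn (log2 fold change −1.97, limma adjusted p = 0.00138). The median of the 12 in AA vs. C was −0.24. Under other scalings, 1 of the 11 was called lower in M vs. C under TPM and in the test on all recovered reads, 1 higher there in the test on reads outside the mitochondrial genes, and 2 lower in AA vs. M with each library centred on its median. In AA vs. C, 6 of the 12 were called lower under TPM, and in the test on reads outside the mitochondrial genes 2 were called higher and 3 lower. The genes most like Acta2 over the 15 libraries were the growth factor gene Bmp4 (r = 0.85), the membrane repair gene Dysf (0.85), Mrpl23 (0.83), Idnk (0.83) and Pear1 (0.81). Over the 13 libraries without M mice 2 and 3, r was 0.79, 0.79, 0.84, 0.81 and 0.75 in this order.

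**Figure D2:**
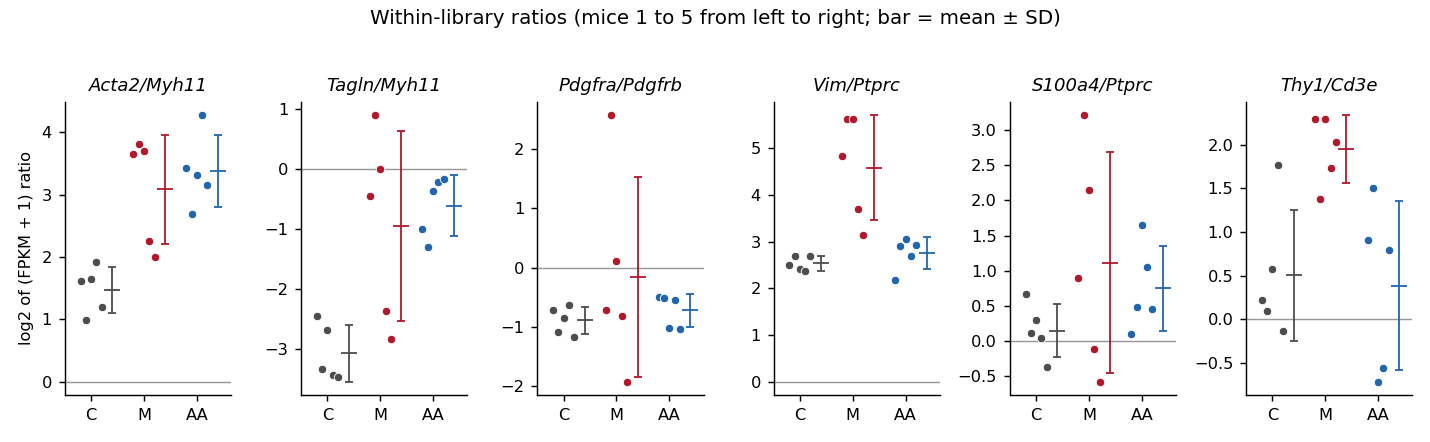
Log2 ratio of (FPKM + 1) between 6 pairs of genes within each library, by group and mouse, with the mean ± SD. Acta2/Myh11 is higher in all M and AA libraries (at least 2.00) than in C (at most 1.92), and Vim/Ptprc is highest in M mice 1 to 3.

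On the deposited FPKM the PDGF receptors stood highest in AA. Pdgfra (ENSMUSG00000029231, chromosome 5, 75152292 to 75198215), the α receptor of interstitial fibroblasts, had 12.3, 7.83, 4.47, 9.73 and 11.1 FPKM in the C libraries, mice 1 to 5. The M libraries had 14.0, 9.53, 14.6, 18.3 and 3.58 in the same order. Those of AA were 27.6, 19.0, 23.3, 19.3 and 27.9, above every value of both other groups.

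Pdgfra rose in AA vs. C by 1.32 on the log2 scale (standard error 0.26, limma adjusted p = 0.00328), and the call held in all 10 fits that left out 1 library. It was not called there under TPM (0.31, limma adjusted p = 0.495) or in the voom test on all recovered reads (0.50, limma adjusted p = 0.200). Its recovered reads overlapped, with 2975 to 3962 per library in C and 1719 to 4502 in AA. Between AA and M it differed by 1.05 on the log2 scale (standard error 0.39) and missed the threshold (limma adjusted p = 0.0782). It was 1.14 there when M mice 2 and 3 were left out (limma adjusted p = 0.153). The M vs. C value was 0.28 (95% interval −0.61 to 1.16, limma adjusted p = 0.747).

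Pdgfrb (ENSMUSG00000024620, chromosome 18, 61045150 to 61085061), the β receptor of pericytes, mesangial cells and fibroblasts, had 20.8, 17.7, 8.79, 15.6 and 26.3 FPKM in the C libraries, mice 1 to 5. The 5 M values were 23.5, 0.769, 13.4, 33.1 and 16.3, where that of M mouse 2 rested on 44 reads and was far below all other libraries. The 5 AA values were 39.1, 27.4, 48.0, 28.8 and 57.8, above every C value. It rose in AA vs. C by 1.15 on the log2 scale (standard error 0.31, limma adjusted p = 0.0133), a call that held in 9 of 10 fits with 1 library left out. It was not called there under TPM (0.09, limma adjusted p = 0.857) or in the voom test on all recovered reads (0.27, limma adjusted p = 0.523). With centred libraries it just missed the fold threshold (0.997). The log2 fold change in AA vs. M was 1.61 (standard error 0.64, limma adjusted p = 0.0987) and in M vs. C −0.46 (95% interval −1.89 to 0.97), and both depended on M mouse 2, since leaving out M mice 2 and 3 gave 0.70 and 0.45.

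The log2 ratio of Pdgfra to Pdgfrb was −1.18 to −0.63 in C and −1.03 to −0.49 in AA, a difference of 0.17 within the spread (exact permutation p = 0.318, adjusted p = 0.476). In M it ran from −1.92 in mouse 5 to 2.57 in mouse 2. Of the 4 PDGF ligand genes Pdgfa, Pdgfb, Pdgfc and Pdgfd, 1 was called higher in AA vs. C, Pdgfd (log2 fold change 1.10, limma adjusted p = 0.00762), a ligand of the β receptor. Limma called none in M vs. C or AA vs. M, where 1 and 0 had an unadjusted p under 0.05. Under TPM none was called higher in AA vs. C and 1 was called lower.

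Of 7 pericyte and mesangial genes (Rgs5, Cspg4, Notch3, Mcam, Kcnj8, Abcc9 and Itga8), 2 were called higher in AA vs. M, the integrin gene Itga8 of mesangial cells (log2 fold change 1.57, limma adjusted p = 0.0235) and the potassium channel subunit gene Abcc9 of pericytes (1.21, limma adjusted p = 0.0220). Limma on the deposited FPKM called none of the 7 in M vs. C or AA vs. C, where 2 each had an unadjusted p under 0.05, and none in AA vs. M once M mice 2 and 3 were left out. Under TPM 1 was called lower in each comparison with C, and the voom test on all recovered reads called 1 lower in AA vs. C. In AA vs. M, Itga8 was called under 3 of the 7 scalings and Abcc9 under 2.

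Fn1 (ENSMUSG00000026193, chromosome 1, 71585520 to 71653200, minus strand) encodes fibronectin, the matrix glycoprotein on which collagen is laid down. The C libraries, mice 1 to 5, had 21.3, 18.9, 7.05, 22.3 and 18.2 FPKM. In M it was 23.6, 48.4, 43.7, 55.7 and 11.8, and 4 of them lay above every C value. In AA it was 65.0, 39.8, 58.3, 30.2 and 70.1, and all 5 did.

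Fn1 rose in AA vs. C by 1.56 on the log2 scale (standard error 0.34, limma adjusted p = 0.00479), and the call held in all 10 fits that left out 1 library. It was not called there under TPM (0.50, limma adjusted p = 0.270) or in the voom test on all recovered reads (0.69, limma adjusted p = 0.0766). In M vs. C it differed by 0.92 on the log2 scale (95% interval −0.05 to 1.90, limma adjusted p = 0.327) and in AA vs. M by 0.63 (−0.30 to 1.57, limma adjusted p = 0.344). Over the 15 libraries Fn1 and Pdgfra had r = 0.87, the highest of the 45 pairs among the 10 genes. Of the 6 fibronectin receptor genes Itga5, Itgb1, Itgav, Itgb3, Itga4 and Sdc4, 0 were called in any comparison by limma, although 2, 3 and 3 had an unadjusted p under 0.05 in M vs. C, in AA vs. M and in AA vs. C. Their median log2 fold changes were 0.22, 0.023 and −0.012, and limma's voom test on all recovered reads called 1 lower, 0 and 3 lower.

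Postn (ENSMUSG00000027750, chromosome 3, 54361109 to 54391037) encodes periostin, a matricellular protein that injured kidneys make. C mice 1 to 5 had 0.726, 0.0972, 0.906, 1.14 and 0.323 FPKM. The level in M was 5.80, 2.66, 1.82, 2.25 and 0.622, and all but M mouse 5 lay above every C value. The level in AA was 2.09, 1.53, 1.02, 0.380 and 1.73 and overlapped with both groups. No comparison was called, with log2 fold changes of 1.04 in M vs. C (standard error 0.37, limma adjusted p = 0.195), −0.53 in AA vs. M (limma adjusted p = 0.371) and 0.51 in AA vs. C (limma adjusted p = 0.149). The M vs. C value was 1.05 when M mice 2 and 3 were left out (limma adjusted p = 0.519).

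Collagens and other matrix genes were tested beside these members. Of 11 fibroblast genes, 1 was called higher in M vs. C, Col3a1 (log2 fold change 2.08, limma adjusted p = 0.0296), 1 in AA vs. M, Col1a1 (1.45, limma adjusted p = 0.0433), and 8 in AA vs. C, led by Col1a1 (2.49), Col3a1 (2.47) and the lumican gene Lum (2.17). Under TPM 3 of the 11 were called higher in AA vs. C and 1 lower. Of 12 matricellular and elastic matrix genes, 1 was called higher in M vs. C, the thrombospondin gene Thbs2 (1.75, limma adjusted p = 0.0216), 1 in AA vs. M, the fibrillin gene Fbn1 (1.36, limma adjusted p = 0.0462), and 6 in AA vs. C, led by the collagen crosslinking enzyme gene Lox (2.21), Thbs2 (1.89) and Sparc (1.83). Under TPM 2 of the 12 were called in AA vs. C. Once M mice 2 and 3 were left out, no gene of either list was called in M vs. C or AA vs. M. In AA vs. M, Col1a1 and Fbn1 were each called under 2 of the 7 scalings.

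S100a4 (ENSMUSG00000001020, chromosome 3, 90603771 to 90606045), a calcium-binding protein also known as fibroblast-specific protein, rested on 0 to 118 reads per library. C mice 1 to 5 had 1.39, 0.341, 0.438, 1.52 and 0 FPKM, where 3 reads in C mouse 5 would give 0.154. M mice 1 to 5 had 1.48, 19.3, 6.05, 0.409 and 0.878, so that the 2 libraries with Xist stood far above the other 3. AA mice 1 to 5 had 2.39, 2.85, 3.65, 3.24 and 1.70, above every C value.

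S100a4 rose in AA vs. C by 1.18 on the log2 scale (standard error 0.28, limma adjusted p = 0.00778), in all 10 fits that left out 1 library as well. It was not called there under TPM (0.77, limma adjusted p = 0.187) or in the voom test on all recovered reads (1.85, limma adjusted p = 0.187). Its recovered reads overlapped, with 0 to 30 per library in C and 15 to 39 in AA. The log2 fold change in M vs. C was 1.27 (95% interval −0.11 to 2.64, limma adjusted p = 0.339), and 0.20 when M mice 2 and 3 were left out. The AA vs. M value was −0.09 (limma adjusted p = 0.941), and it turned to 0.98 without these mice (limma adjusted p = 0.0988). Of its exon bases, 51.7% also lie in Gm42674 on the same strand, which was listed at 0 in all 15 libraries. How reads shared with Gm42674 were counted is not stated, so the level of S100a4 is uncertain. The log2 ratio of S100a4 to Ptprc was higher in AA than in C by 0.60, within the spread (exact permutation p = 0.111, adjusted p = 0.222).

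Of 8 other S100 genes, 0 were called by limma in M vs. C, where 2 had an unadjusted p under 0.05 and the voom test on all recovered reads called 1 lower. In the other comparisons, 2 were called lower in AA vs. M, S100a6 (log2 fold change −1.35, limma adjusted p = 0.0199) and S100a10 (−1.22, limma adjusted p = 0.0279), neither of them without M mice 2 and 3, and 1 was called lower in AA vs. C, S100a9 of neutrophils (−1.27, limma adjusted p = 0.0308). Only 1 of the 8 had a log2 fold change above 0 in AA vs. C, and under TPM 7 were called lower there. Of 6 intermediate filament genes other than Vim and Des, 2 were called lower in AA vs. C, the epithelial keratin genes Krt7 (−2.19, limma adjusted p = 0.000597) and Krt18 (−1.39, limma adjusted p = 0.0450). Limma on the deposited FPKM called none of them in M vs. C or AA vs. M, where 1 and 0 had an unadjusted p under 0.05. Of the 6, 1 was called lower in M vs. C under TPM and in the test on all recovered reads, and in AA vs. M 1 was called lower under quantile normalization and with centred libraries.

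Thy1 (ENSMUSG00000032011, chromosome 9, 44043384 to 44048579), a surface glycoprotein of perivascular fibroblasts and, in mice, of T cells, had 1.52, 0.341, 0.608, 3.23 and 0.359 FPKM in C mice 1 to 5. M mice 1 to 5 had 3.88, 1.60, 4.43, 4.72 and 7.95, overlapping with C through C mouse 4 only. AA mice 1 to 5 had 5.49, 3.67, 1.49, 2.30 and 3.42, overlapping with C through C mice 1 and 4.

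Thy1 rose in AA vs. C by 1.03 on the log2 scale (standard error 0.36, limma adjusted p = 0.0401), a call that was close to both thresholds. It held in 4 of 10 fits with 1 library left out, where limma adjusted p ran from 0.00952 to 0.0972, and under 2 of 7 scalings. Its M vs. C log2 fold change was 1.36 (standard error 0.40) and missed the threshold (limma adjusted p = 0.122), and it was 1.66 when M mice 2 and 3 were left out (limma adjusted p = 0.216). Its AA vs. M value was −0.34 (limma adjusted p = 0.580).

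T cell markers, read beside Thy1, went in both directions in AA. The summed FPKM of 8 of them (Cd3e, Cd3d, Cd3g, Cd4, Cd8a, Lck, Cd2 and Cd5) was 1.60 to 9.12 in C, 0.108 to 22.4 in M and 9.14 to 19.0 in AA, and no marker was at 0 throughout a group. Of the 8, 2 were called higher in AA vs. C, Cd3g (log2 fold change 2.41) and Cd3e (1.15, limma adjusted p = 0.0127), both chains of the T cell receptor complex, whereas only 3 of the 8 had a log2 fold change above 0 there and their median was −0.021. Cd3g and Cd3e were also called higher in AA vs. M, where Thy1 was not, 5 of the 8 could be tested, 2 of these had a log2 fold change above 0 and their median was −0.40. Without M mice 2 and 3, limma called 0 of the 5 in AA vs. M. Over the 7 scalings, Cd3g was called higher in AA vs. M under 6 and Cd3e under 2.

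The log2 ratio of Thy1 to Cd3e averaged 0.50 ± 0.75 in C, 1.95 ± 0.39 in M and 0.38 ± 0.97 in AA (SD, n = 5 each). AA lay below M with a difference of −1.56 (exact permutation p = 0.0159, adjusted p = 0.0476), M above C by 1.44 (exact permutation p = 0.0238, adjusted p = 0.0612), and AA differed from C by −0.12 (exact permutation p = 0.833). Cd3e had 0 reads in M mice 1 and 2, and with 0.1 in place of the added 1 the AA vs. M difference was −3.25 (exact permutation test, adjusted p = 0.0476). Without M mice 2 and 3 it was −1.63 and no longer passed (exact permutation test, adjusted p = 0.107). The part of T cells in the Thy1 result was not tested.

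**Figure D3:**
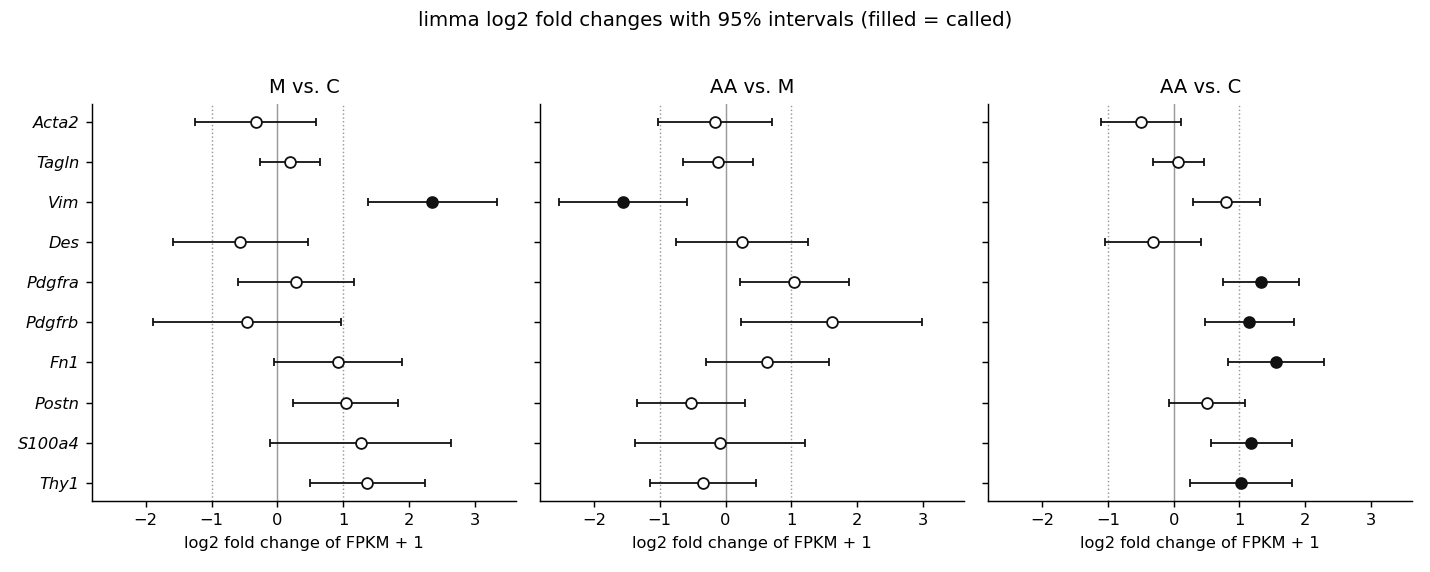
Log2 fold change of FPKM + 1 with its 95% interval for each of the 10 genes in the comparisons M vs. C (left), AA vs. M (middle) and AA vs. C (right), by limma with 5 libraries against 5. Filled points were called (adjusted p of 0.05 or less and past −1 or 1), which holds for Vim in the first 2 panels and for Pdgfra, Pdgfrb, Fn1, S100a4 and Thy1 in the third.

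Since FPKM corrects for length, the genes can be ordered within a library whatever its scaling. Acta2 had the highest mean of the 10 in C (28.9 ± 13.5 FPKM, SD, n = 5), where it exceeded Pdgfrb in 4 of 5 libraries, Fn1 in 4 and Vim in all 5. Pdgfrb and Fn1 came next and could not be ordered, since Pdgfrb was above Fn1 in 2 of 5 libraries. In M, Vim had the highest mean and was above Acta2 in M mice 1 to 3 only. In AA, Fn1 (52.7 ± 17.0 FPKM, SD, n = 5) exceeded Pdgfrb (40.2 ± 12.9 FPKM, SD, n = 5), and both exceeded Acta2 (19.2 ± 4.13 FPKM, SD, n = 5), in all 5 libraries. At the lower end, Thy1, S100a4 and Postn could not be fully ordered in C, where S100a4 was above Postn in 3 of 5 libraries, and Tagln had the lowest mean in all 3 groups. The places of Tagln and S100a4 are uncertain, since 67.9% and 51.7% of their exon bases lie in exons of other genes. How reads shared by genes were counted is not stated.

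Which genes were called depended on scaling. Against the deposited FPKM, the median log2 fold change of all genes in AA vs. C moved from 0.09 to −0.39 under TPM and to −0.75 in limma's voom test on all recovered reads, but to 0.35 in the voom test on reads outside the mitochondrial genes. Of the genes called there, 2241 of 4346 were higher at the deposited scale, 862 of 6785 under TPM 1587 of 8571 in the voom test on all reads and 4740 of 7850 in that outside the mitochondrial genes. Under TPM and in the voom test on all reads, 0 of the 10 members were called higher and 2 lower, Acta2 and Des. In the voom test outside the mitochondrial genes 6 were called higher and 0 lower, namely Vim (log2 fold change 1.01, limma adjusted p = 0.00471) beside the 5 genes called at the deposited scale. The M vs. C median moved from −0.12 to −0.58 under TPM, to −1.63 in the voom test on all reads and to −0.51 in that outside the mitochondrial genes, and the higher genes among those called from 57 of 291 to 31 of 1609, 34 of 1816 and 105 of 488.

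Measured from the median of all genes in the same setting, the members kept their side more often. In AA vs. C, Pdgfra lay above it by 0.70 to 1.30 over the 7 scalings, Pdgfrb by 0.48 to 1.09, Fn1 by 0.89 or more, S100a4 by 1.05 to 2.61 and Thy1 by 0.85 to 1.83. Acta2 lay below it, at −1.19 to −0.52, and Des at −0.88 to −0.35. In M vs. C, Vim lay above it by 2.01 to 3.22 and was called in all 7, whereas Acta2, Des, Pdgfra and Pdgfrb lay on either side. In AA vs. M, Vim lay at −2.35 to −1.48 and was called in 6 of 7, TPM being the exception, and Pdgfra and Pdgfrb lay above it by 0.32 to 1.00 and 0.88 to 1.51.

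**Figure D4:**
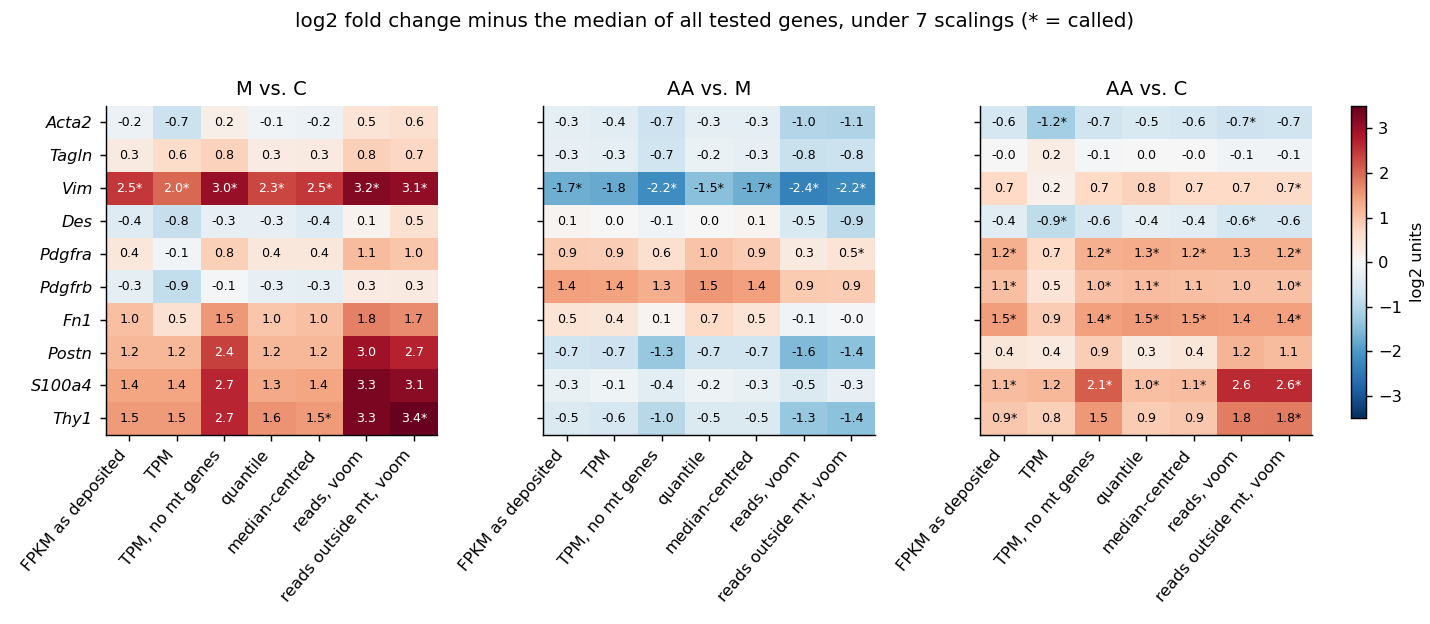
Log2 fold change minus the median log2 fold change of all genes tested, for the 10 genes in each comparison under the deposited FPKM and 6 other scalings, with an asterisk where the gene was called. Vim stays above the median in all columns of M vs. C and below it in those of AA vs. M, and the PDGF receptors and Fn1 stay above the median in AA vs. C, with their smallest values under TPM.

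Markers of other kidney cells moved in the same comparisons. The summed FPKM of 7 proximal tubule markers was 2875 to 11606 in C, 81.6 to 505 in M and 134 to 499 in AA, with 5 of 7 called lower in M vs. C and 6 of 7 in AA vs. C, led by Slc34a1 (log2 fold changes −5.65 and −5.48), the phosphate transporter of the proximal tubule. Kap alone made up most of this sum, with 2779 to 10538 FPKM in C, 81.2 to 500 in M and 126 to 486 in AA. Of 4 markers of injured tubules, 3 were called higher in AA vs. C, led by Havcr1 (3.17, limma adjusted p = 0.00011), and 2 in AA vs. M. These 2, Havcr1 and Sox9, were each called in AA vs. M under 2 of the 7 scalings. Of 6 distal tubule and duct markers, 2 were called lower in M vs. C, 3 lower in AA vs. C and 1 higher in AA vs. M. Of 8 endothelial markers, 0 had a log2 fold change above 0 in M vs. C or AA vs. C, and 1 was called lower in AA vs. C at the deposited scale but 6 under TPM and in the voom test on all recovered reads. Of 6 podocyte markers, 1 was called higher in AA vs. M, and 1 higher and 1 lower in AA vs. C. Without M mice 2 and 3, limma called none of the tubular markers in M vs. C. Its calls in AA vs. M then held none of the injured tubule or podocyte markers and 1 of the 6 distal ones, as lower. The part of the change in tubular RNA in the rise of the PDGF receptors, Fn1, S100a4 and Thy1 was not tested.

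**Figure D5:**
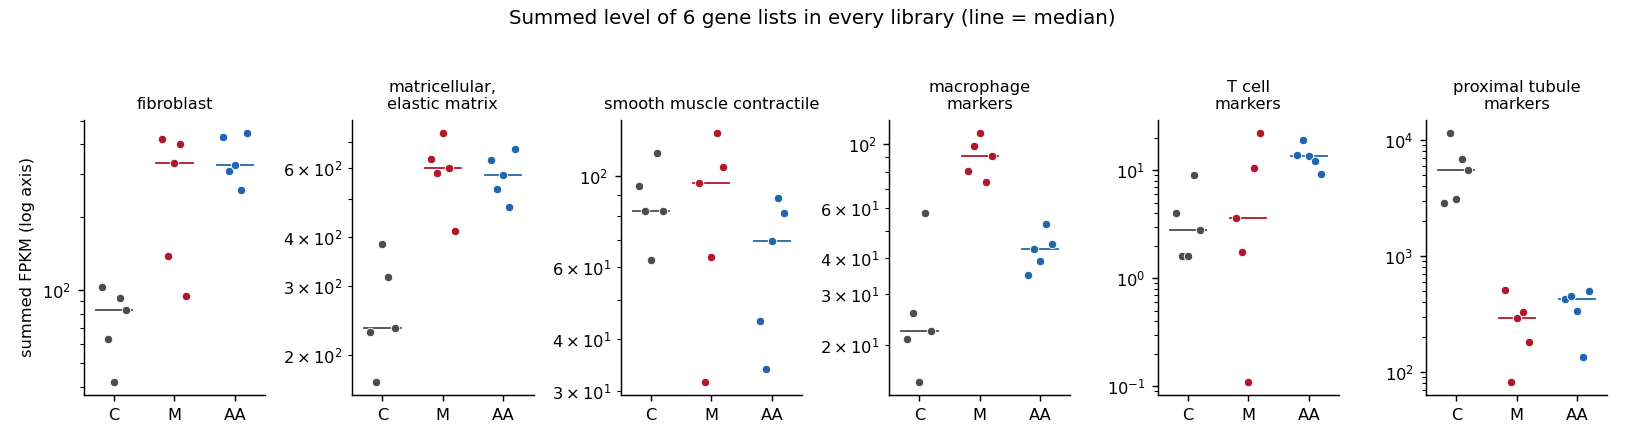
Summed FPKM of 6 gene lists in every library on a log axis, with the group median as a line (fibroblast 11 genes, matricellular and elastic matrix 12, smooth muscle contractile 12, macrophage 8, T cell 8, proximal tubule 7). The proximal tubule sum, mostly Kap, is lower in all M libraries than in C, and the macrophage sum, in M mostly C1qa, C1qb and C1qc, is higher. The fibroblast sum of every AA library (at least 258) lies above that of every C library (at most 103).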

How the data were processed

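Poly-A RNA of 1 kidney from each of 15 mice was sequenced in paired ends. Per the labels and the study's methods, the authors trimmed the reads with fastp, aligned them to mm10 with HISAT2 2.0.5, counted them on genes with featureCounts 1.5.0-p3 and deposited 1 FPKM value per gene and library, without pooling. The annotation, the strand setting and the total by which FPKM was divided are not given in the sources used here. Counts, to which the authors applied DESeq2, were not used here. Treatment groups in the study were larger than 5, and the labels number the libraries 1 to 5 in each group, so each was taken as 1 mouse.

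Symbols, positions and exon lengths came from GENCODE M21, which lacked 37 of the 54532 genes, and promoters from RefSeq (GRCm38.p6). FPKM times exon length fell on whole multiples of a step in 97.8 to 99.0% of low values per library (up to 20 steps, tolerance 0.05 step), and these gave the recovered reads. The total implied by the step was 0.518 to 2.30 times all recovered reads. It was 3.19 to 5.03 times those outside the mitochondrial genes, which it thus followed more closely. Of the whole multiples 64.2 to 74.5% were even, as if both mates were counted, so a factor of 2 is uncertain and no counting interval was computed. FPKM columns summed to 263859 to 1481916.

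A gene entered a comparison when 5 or more of its 10 libraries had FPKM above 0, and was tested with limma 3.58.1 in R 4.3.3 (intensity trend) on log2(FPKM + 1), which understates the change of low genes, with Benjamini-Hochberg adjustment over all genes that entered. Ratios used two-sided exact permutation tests adjusted over 18. The limma fit was tested on simulated data. Alternatives were other pseudocounts, filters, scalings (TPM, TPM without mitochondrial genes, quantile normalization, centring, voom on recovered reads), 15 libraries in one fit, quality weights, no trend, a replicate block, libraries left out, and M mice 1 to 3 or 4 and 5 alone. The voom test outside mitochondrial genes and the M group without mice 2 and 3 were chosen after seeing the data, as were Xist and Ddx3y. All members were named, and of each other list the called genes, at most 3 per comparison by size of change, with the denominators of the ratios and the 5 genes most like Acta2 and Vim. Genes whose exons overlap a member's were also named. The members and lists were chosen with earlier results of these data known. Ratios and correlations were computed with scipy 1.17.1, numpy 2.4.6 and pandas 2.3.3 in Python 3.11.15, and plots were drawn with matplotlib 3.10.9.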

Additional observations from a re-analysis of the deposited data

Results flagged for a closer look

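In 30 groups of 5 libraries, 10 genes in 3 groups each, 2 held a library whose distance from its nearest neighbour took more of the group's range than Dixon's 95% critical value of 0.71 allows, and chance gives about 1 in 20 groups. The Acta2 level of C mouse 4 (52.6 FPKM) stood above the other C libraries, the highest of which had 25.4 FPKM. The Fn1 level of C mouse 3 (7.05 FPKM) stood below the other C libraries, the lowest of which had 18.2 FPKM.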

How the results depend on the processing

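Precision is limited by 5 mice per group and by M mice 1 to 3, whose libraries held few genes, and Tagln and S100a4 rested on at most 61 and 118 reads. Against the counts of members called (1 in M vs. C, 1 in AA vs. M, 5 in AA vs. C), those with each library left out in turn ran from 0 to 2, 0 to 3 and 3 to 5. Those of ratios with an adjusted p of 0.05 or less (2 in each comparison) ran from 0 to 3, 0 to 2 and 0 to 2, where an exact test of 4 against 5 cannot go below p = 0.0159. In M vs. C, 0 members were called with genes above 0 in any library, with M mice 4 and 5 alone and without M mice 2 and 3. There, 2 were called with centred libraries and in voom outside mitochondrial genes (Thy1 and Vim), and 4 with M mice 1 to 3 alone (Des, Postn, S100a4 and Vim). Of AA vs. M, 0 were called with genes above 0 in any library, under TPM, with quality weights, with M mice 4 and 5 alone and without M mice 2 and 3, and 2 with all 15 libraries in one fit or in voom outside mitochondrial genes (Pdgfra and Vim) and with M mice 1 to 3 alone (Pdgfrb and Vim). In AA vs. C, 2 were called under TPM and in voom on all reads (Acta2 and Des, lower), 3 with centred libraries (Fn1, Pdgfra and S100a4) and with all 15 libraries in one fit (Fn1, Pdgfra and Thy1), and 6, all higher, in voom outside mitochondrial genes (Vim beside the main 5). Apart from the settings that left out libraries, the causes were not tested.

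Of the ratios, 1 passed in each comparison with a pseudocount of 0.1, and 1 each under TPM without mitochondrial genes for M vs. C and for AA vs. M. None (0) passed in M vs. C or AA vs. M with M mice 4 and 5 alone, where an exact test cannot go below p = 0.0952, or without M mice 2 and 3.

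The replicate numbers share only a number, since the deviations of same-numbered libraries correlated at −0.13 to 0.22 and over 0.1 in 2 of 5 pairs for M vs. C, 0 for AA vs. M and 1 for AA vs. C. Likewise 2, 0 and 1 of 5 libraries correlated best with their own number. With the replicate number as a block, 0 members were called in M vs. C, 1 in AA vs. M and 5 in AA vs. C, and 0 ratios passed in any comparison, where the paired exact test cannot go below p = 0.0625.

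Log2 fold changes that turned sign in M vs. C, none of them called in the main setting, were those of Tagln at a pseudocount of 0.01 (−0.40) and in voom (−0.80), of Pdgfra under TPM (−0.68), in voom (−0.51) and with M mice 4 and 5 alone (−0.036), of Fn1 under TPM (−0.049), and of S100a4 with M mice 4 and 5 alone (−0.0051). Acta2 turned with centred libraries (0.030), quality weights (0.20), voom outside mitochondrial genes (0.037), M mice 4 and 5 alone (0.58) and without M mice 2 and 3 (0.15). Pdgfrb turned with quality weights (0.17), without M mouse 2 (0.26, other libraries left out from −0.81), with M mice 4 and 5 alone (0.45) and without M mice 2 and 3 (0.45), and Des in voom outside mitochondrial genes (0.025) and with M mice 4 and 5 alone (0.52). In AA vs. M, S100a4 turned at pseudocounts of 0.1 (0.16) and 0.01 (0.22), with quality weights (0.85), in voom (0.19) and voom outside mitochondrial genes (0.39), without M mouse 2 (0.51), M mouse 3 (0.12) or AA mouse 5 (0.027, others from −0.46), with M mice 4 and 5 alone (1.19) and without M mice 2 and 3 (0.98). Des turned under quantile normalization (−0.099), with centred libraries (−0.26), quality weights (−0.33), voom outside mitochondrial genes (−0.23), without M mouse 2 (−0.018, others up to 0.55), with M mice 4 and 5 alone (−0.83) and without M mice 2 and 3 (−0.23). Tagln turned at a pseudocount of 0.01 (0.037), without M mouse 4 (0.032, others from −0.28) and with M mice 1 to 3 alone (0.026), and Acta2 without M mouse 4 (0.13, others from −0.36) and with M mice 1 to 3 alone (0.44). In AA vs. C, Tagln turned at a pseudocount of 0.01 (−0.36), under TPM (−0.14), with centred libraries (−0.084), in voom (−0.87) and without AA mouse 5 (−0.098, others up to 0.15), Postn under TPM (−0.039) and Vim under TPM (−0.22) and in voom (−0.058).

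Among log2 ratios, differences in AA vs. M turned for Acta2/Myh11 at a pseudocount of 0.1 (−0.42) and under TPM without mitochondrial genes (−0.47), and for Tagln/Myh11 in the same settings (−0.49 and −0.44) and without M mouse 4 (−0.016) or 5 (−0.13, others up to 0.80). In AA vs. C they turned for Vim/Ptprc in those settings (−0.42 and −0.44) and for Thy1/Cd3e without C mouse 4 (0.20) or AA mouse 3 (0.16) or 4 (0.12), others from −0.40. Pdgfra/Pdgfrb turned in AA vs. M without M mouse 2 (0.12, others from −1.01), with M mice 4 and 5 alone (0.65) and without M mice 2 and 3 (0.44), and in M vs. C with M mice 4 and 5 alone (−0.48) and without M mice 2 and 3 (−0.26). S100a4/Ptprc turned in AA vs. M in the same settings (0.16, 1.09 and 0.68, with others left out from −0.79) and in M vs. C with M mice 4 and 5 alone (−0.49) and without M mice 2 and 3 (−0.080).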
